A study of Rattus norvegicus with 60 samples.

Results

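Cytosolic ribosomal proteins were followed across the subfields of the rat hippocampus in adulthood and ageing. They were chosen by name alone, as the genes whose symbol is Rpl or Rps followed by a digit, or Rplp1, Rplp2 or Rpsa, with ribosomal S6 kinases, a binding protein and the names of pseudogenes and of like genes left out. Of 22523 probes on the array, 73 met that rule and stood for 70 genes of the 21563 symbols in the table, 41 of the large subunit and 29 of the small subunit. The brightest probe stood for each of the 3 genes with several probes (Rpl26, Rpl36a and Rps9). A gene was followed when its probe had a detection p-value under 0.01 on 4 or more arrays of a region, and 64 genes met this in every region, 37 of the large and 27 of the small subunit. Rpl11, Rpl12, Rpl34, Rpl38, Rps19 and Rps28 were detected on 0 of 60 arrays, so their probes say nothing of these genes. No probe carried the symbol Rplp0. Just inside the rule, Rps16 was detected on 8 of 24 whole hippocampus arrays and Rplp2 on 8 of 12 CA1 arrays, so these 2 genes were near background.

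RNA came from F344BN rats, the F1 hybrid of the Fischer 344 and Brown Norway strains. Adult rats were 12 months old and aged rats 24 months old, and the aged rats were labelled intact or impaired. The labels used here do not state which measure divided intact from impaired, and give no treatment or genetic change. CA1, CA3 and the dentate gyrus (DG) were each represented by 4 arrays per group on a slide of their own, and whole hippocampus by 6 adult, 9 intact and 9 impaired arrays over 2 slides. Region and slide therefore cannot be told apart. Within each subfield slide the adult, intact and impaired arrays filled separate blocks of positions, so group and position cannot be told apart there either, whereas they were mixed in whole hippocampus. Nothing in the labels ties an array to a separate animal, so each p-value rests on the spread among the samples, part of which may be technical.

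The ribosome is built from a large and a small subunit, each a scaffold of ribosomal RNA clad with many proteins, most of them encoded by single genes that cells express together. Transcripts of these proteins begin with a run of pyrimidines, the 5′ terminal oligopyrimidine or TOP motif, through which mTOR signalling sets their translation. In neurons ribosomes lie in cell bodies and along dendrites, where local protein synthesis takes part in lasting synaptic change, and glial cells carry the same genes. An RNA level in bulk tissue does not measure ribosome number or translation, and fewer cells of a type cannot be told apart from less RNA per cell.

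The start regions of 10 members are shown because the results below turn on most of them. Each runs from 50 bases before the annotated start to base 25 of the transcript, 5′ to 3′ along the gene, from RefSeq promoter entries on the GRCr8 build. Capitals mark the letters CTTTCC or CTCTTT, 2 spellings of a pyrimidine run that overlap where they meet. Rps27 lies at chr2:177964582-177964656 (minus strand), Rps23 at chr2:23814467-23814541 (plus), Rps18 at chr20:4933695-4933769 (plus), Rps3 at chr1:163195752-163195826 (minus) and Rpl37 at chr2:55942895-55942969 (plus). Rpl21 lies at chr12:13386129-13386203 (minus), Rpl10 at chrX:157205800-157205874 (plus), Rpl39 at chrX:121195872-121195946 (minus), Rpl5 at chr14:1995201-1995275 (minus) and Rplp2 at chr1:205975871-205975945 (plus).
Rps27: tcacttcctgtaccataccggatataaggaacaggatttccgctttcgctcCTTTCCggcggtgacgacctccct
Rps23: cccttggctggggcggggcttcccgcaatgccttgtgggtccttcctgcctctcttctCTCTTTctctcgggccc
Rps18: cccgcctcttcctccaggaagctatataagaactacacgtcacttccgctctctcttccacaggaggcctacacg
Rps3: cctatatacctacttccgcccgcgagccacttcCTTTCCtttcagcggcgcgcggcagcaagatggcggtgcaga
Rpl37: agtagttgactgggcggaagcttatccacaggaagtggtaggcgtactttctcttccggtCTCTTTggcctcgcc
Rpl21: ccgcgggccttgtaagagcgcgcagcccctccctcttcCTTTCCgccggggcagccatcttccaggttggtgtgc
Rpl10: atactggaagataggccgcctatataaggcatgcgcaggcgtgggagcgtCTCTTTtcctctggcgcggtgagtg
Rpl39: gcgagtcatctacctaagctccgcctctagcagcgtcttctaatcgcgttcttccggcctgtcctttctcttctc
Rpl5: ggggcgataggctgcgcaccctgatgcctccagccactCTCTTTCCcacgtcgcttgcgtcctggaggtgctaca
Rplp2: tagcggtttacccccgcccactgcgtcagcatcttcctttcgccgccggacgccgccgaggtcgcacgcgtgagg

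In these windows 7 of the 10 held a marked run. Those of Rps18, Rpl39 and Rplp2 held neither spelling. RefSeq entries existed for 55 of the 70 member symbols. On the gene's own strand, within 20 bases of the start, either spelling stood in 25 of these 55 entries (45.5%) and in 1044 of all 33469 entries (3.1%). Over the whole promoter entry and on both strands, the ETS family letters CCGGAAG stood in 34.5% of members and 8.7% of all entries. The GC box GGGCGG stood in 58.2% and 33.1%, and the TATA box TATAAA in 9.1% and 14.2%. The YY1 letters AAGATGGC stood in 9.1% and 3.2%. A match describes these letters only.

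A single array stood apart. CA1 adult replicate 4 detected 22.22% of all probes, against 40.64% to 47.21% on the other 59 arrays. None of the CA1 pyramidal cell markers Wfs1, Fibcd1 and Mpped1 was detected on it, although each was detected on all 11 other CA1 arrays. Wfs1 read 6.43 there on the normalized log2 scale and 9.65 to 10.34 on the others. Wfs1 was also detected on 10 of 12 CA3 and 7 of 12 DG arrays (medians 6.41 and 5.68). The CA3 marker Nectin3 was detected on 12 of 12 CA3 arrays, 11 of 12 in DG and 2 of 12 in CA1 (medians 8, 6.48 and 5.1). Bok was detected on 12 of 12 arrays of each subfield (medians 11.57 in CA3, 10.83 in CA1 and 10.57 in DG). Grik4 and Cdh24 were detected on 0 of 12 CA3 arrays. The DG markers Dsp, Prox1 and Pdzd2 were detected on 12 of 12 DG arrays, Pdzd2 also on 9 of 12 in CA1 and 5 of 12 in CA3. The main results on CA1 are therefore given with and without CA1 adult replicate 4. In whole hippocampus, aged intact replicates 2 and 7 had low ribosomal protein levels with 42.19% and 42.05% of probes detected, within the range of the other arrays.

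The mean level of the members differed little between the CA3 arrays and more between those of the other regions. After each gene's mean over the 60 arrays was subtracted, the mean over the 64 members was between -0.061 and 0.081 log2 units on the 12 CA3 arrays and between -0.085 and 0.231 on the DG arrays. On CA1 adult replicate 4 it was -0.932, and on the other CA1 arrays it ran from 0.001 to 0.321. On whole hippocampus intact replicates 2 and 7 it was -0.323 and -0.330. Across the 59 arrays without CA1 adult replicate 4 the mean of the large subunit followed that of the small subunit (r of 0.93 after group means were removed, a description, since both share the array and its normalization). The median member had a within-group SD of 0.159, against 0.204 for all probes.

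**Figure D1:**
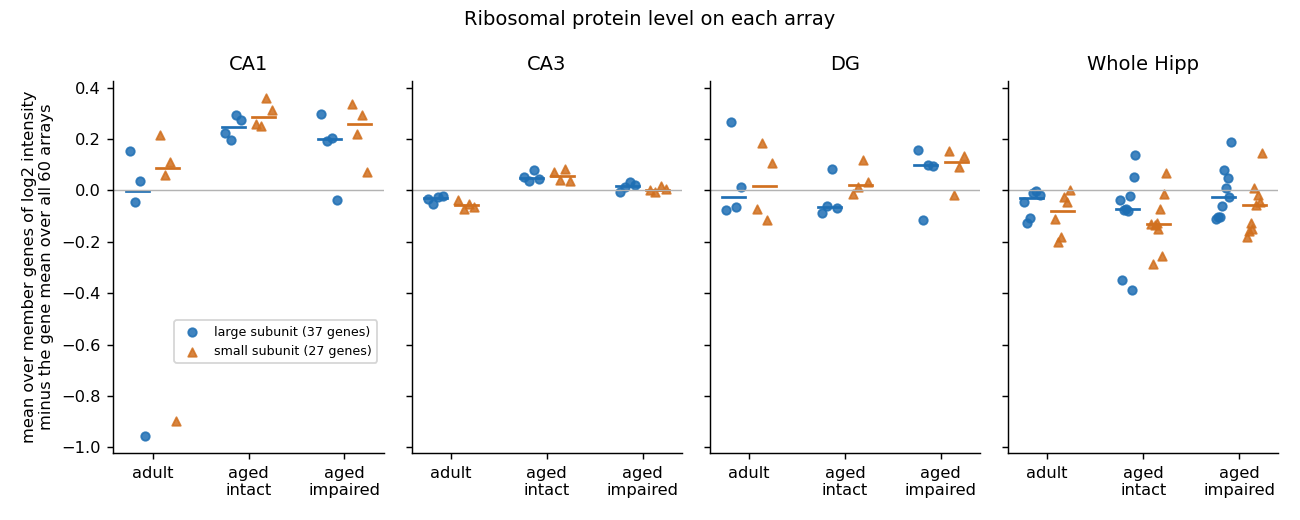
Mean over member genes on each array of the log2 intensity minus that gene's mean over all 60 arrays (vertical axis, log2 units), for the large subunit (circles, 37 genes) and the small subunit (triangles, 27 genes), by region and group; lines are group medians. CA1 adult replicate 4 lies near -0.9 for both subunits, the 3 CA3 groups lie in separate narrow bands, and 2 whole hippocampus intact arrays lie below the others.

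The subunits stayed close in every group. On the CA3 arrays the large subunit mean minus the small subunit mean ran from -0.016 to 0.046, with group means of 0.024 ± 0.017 in adults, -0.004 ± 0.010 in intact and 0.011 ± 0.011 in impaired rats (SD, n = 4 each). In CA1 all 12 arrays were below 0, from -0.110 to -0.028, CA1 adult replicate 4 among them at -0.062. DG arrays spread from -0.100 to 0.080, with the 4 intact arrays all below 0 (-0.070 ± 0.027). Whole hippocampus ran from -0.133 to 0.092, and its lowest arrays were intact replicates 7 and 2 (-0.133 and -0.063). The median over arrays was -0.062 in CA1, -0.036 in DG, 0.01 in CA3 and 0.066 and 0.046 on the whole hippocampus slides, an order in which region and slide cannot be told apart. Single arrays of neighbouring regions overlapped.

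The first comparison asked how aged rats, intact and impaired averaged, differed from adults. In CA3 no member passed an adjusted p of 0.05 (0 of 64, against 0.912% of the 9873 probes tested), and the lowest adjusted p was 0.124. Without adjustment 9 members had a p under 0.05, all above adults, against 7.32% of all probes in that direction. The difference was above 0 for 51 of the 64, 26 of 37 of the large and 25 of 27 of the small subunit, where 50.6% of all probes were above 0. The median over members was 0.09 (0.091 large, 0.09 small) and the median of all probes 0.002. Each of these differences was small, and none alone passed the test.

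Rpl21, a large subunit protein, had the smallest CA3 p. It read 12.37, 12.54, 12.45 and 12.52 on the adult arrays, 12.8, 12.81, 12.77 and 12.72 on the intact and 12.64, 12.58, 12.62 and 12.53 on the impaired ones. Intact arrays lay above both other groups and impaired arrays overlapped adults by 1 array. The aged minus adult difference was 0.21 ± 0.06 (SE, adjusted p = 0.124), or 1.16-fold.

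Rpl18, also of the large subunit, read 11.54, 11.49, 11.48 and 11.55 in adult CA3, 11.73, 11.86, 11.78 and 11.8 in intact and 11.9, 11.6, 11.65 and 11.56 in impaired rats. All 8 aged arrays lay above all 4 adult arrays, the lowest of them narrowly, and the difference was 0.22 ± 0.07 (adjusted p = 0.168). Rpl19 was the other member without overlap, with adults at 12.53 to 12.64, intact at 12.7 to 12.82 and impaired at 12.7 to 12.78. Its difference was 0.14 ± 0.06 (adjusted p = 0.286). Higher without overlap described 2 of 64 members and 1.65% of all probes.

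Among small subunit proteins, Rps3 sits at the channel where mRNA enters. In CA3 it read 12.35, 12.6, 12.51 and 12.47 in adults, 12.86, 12.91, 12.74 and 12.53 in intact and 12.69, 12.66, 12.7 and 12.61 in impaired rats. All impaired arrays lay just above the adult range while 1 intact array lay inside it. The difference was 0.23 ± 0.08 (adjusted p = 0.202), the largest of any member in CA3. Rps15, which lies near the decoding site, had 0.22 ± 0.07 (adjusted p = 0.188), with adults at 11.53 to 11.79, intact at 11.83 to 12.1 and impaired at 11.73 to 11.92. Rpsa, known also as the laminin receptor, had 0.20 ± 0.07 (adjusted p = 0.219).

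Rpl5, which carries the 5S ribosomal RNA into the large subunit together with Rpl11, had the lowest CA3 difference, -0.17 ± 0.13. It read 7.69, 8.07, 7.82 and 7.92 in adults, 7.5, 7.2, 7.85 and 7.92 in intact and 7.48, 7.97, 7.91 and 7.84 in impaired rats, so the groups overlapped throughout. Rpl15 and Rpl6 followed at -0.15 ± 0.09 and -0.09 ± 0.10. The lowest 3 were all of the large subunit. None of these 3 passed the test.

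**Figure D2:**
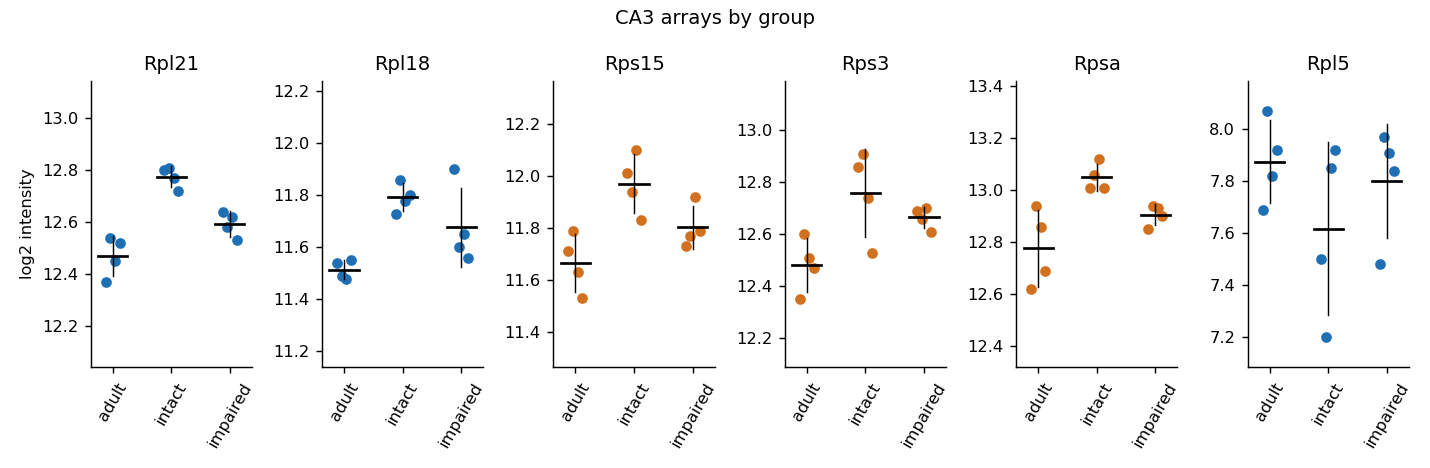
Log2 intensity (vertical axis, log2 units; each panel spans the same height) on the 4 CA3 arrays of each group for Rpl21, Rpl18, Rps15, Rps3, Rpsa and Rpl5; points are arrays, horizontal lines are means and vertical lines ± SD. For the first 5 genes the intact mean is highest, and for Rpl5 the groups overlap.

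Markers of other cells also differed by age in CA3. Of 6 microglial markers tested, 5 passed higher in aged rats (C1qa 0.51 ± 0.06, Trem2 0.52 ± 0.07, C1qb, C1qc and Tyrobp), as did the astrocyte marker Gfap (0.68 ± 0.08), 1 of 6. The mean level of the 6 microglial markers ran from 9 to 9.09 on adult, 9.49 to 9.62 on intact and 9.35 to 9.44 on impaired arrays. Its groups were thus ordered as those of the ribosomal protein mean. The 6 oligodendrocyte markers had medians in the same order (10.57 adult, 10.71 intact and 10.6 impaired), but their arrays overlapped. The 6 astrocyte markers had 11.58, 11.76 and 11.77. The 5 neuron markers had a median of -0.117 with 0 called, and ran from 12.15 to 12.16, 12.02 to 12.08 and 12 to 12.07. The part of these cells in the ribosomal protein values was not tested.

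In CA1 no member passed either (0 of 64, against 0.0501% of 9978 probes). The median over members was 0.507 (large 0.513, small 0.471), while that of all probes was 0.064, and 56 members were above 0 where 56.9% of all probes were. Without adjustment 4 members had a p under 0.05, all above adults, against 3.97% of probes. That shift rested on CA1 adult replicate 4: without it the median was 0.126 (large 0.132, small 0.097), against 0.008 for all probes. Without that array 55 members were above 0, where 51.5% of probes were. Again 0 of 64 passed (0.11% of probes), with a lowest adjusted p of 0.168. Above adults, 13 members had an unadjusted p under 0.05 (10.1% of probes). Below adults 1 member did, and the share of all probes on that side was not computed.

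Rpl8, a protein of the catalytic core of the large subunit, showed both faces of this. It read 12.02, 11.78, 11.91 and 10.87 in adult CA1, with the last from replicate 4, then 12.52, 12.28, 12.27 and 12.13 in intact and 12.37, 12.21, 12.31 and 12.06 in impaired rats. All 8 aged arrays lay above all adult arrays, with or without replicate 4. With all arrays this held for 1 of 64 members and 0.762% of probes, and without replicate 4 for 3 members (Rpl8, Rps16 and Rps3a) and 1.42% of probes. The difference was 0.62 ± 0.20 (adjusted p = 0.63) with it and 0.37 ± 0.11 (adjusted p = 0.176) without it.

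Rpl10, which is fitted last into the large subunit before the subunits can join, changed sign. Adult CA1 arrays read 12.87, 13.05, 12.95 and 9.88, intact 12.47, 12.75, 12.87 and 12.94 and impaired 12.92, 12.85, 12.82 and 13.07. Replicate 4 lay far below every other array, and the difference was 0.65 ± 0.49 with it and -0.12 ± 0.11 without it. Rpl5 did the same, at 0.39 ± 0.44 with it and -0.30 ± 0.11 without it (adjusted p = 0.188), and its adult arrays read 7.21, 7.6, 7.33 and 4.63. Rpl24, which forms a bridge between the subunits, went the other way, at 0.13 with replicate 4 and 0.73 ± 0.21 without it (adjusted p = 0.176). It read 10.35, 9.37, 10 and 12.34 in adults, so that the array low for most members was the highest of all for this one.

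Rps24, of the small subunit, had the lowest CA1 difference (-0.39 ± 0.23), with adult values of 8.47, 8.56, 8.18 and 9.63. Here too replicate 4 was the outlying array, on the high side, and the difference was -0.09 ± 0.11 without it. Toward the high end Rpl7 and Rps9 had 0.92 ± 0.47 and 0.84 ± 0.34 with it, and 0.25 ± 0.21 and 0.34 ± 0.13 without it. Rps9 read 12.51, 12.07, 12.3 and 10.31 in adults, 12.64 to 12.82 in intact and 12.16 to 12.78 in impaired rats. At the low end Rpl31 and Rpl29 had -0.17 ± 0.20 and -0.17 ± 0.18, and 0.02 ± 0.14 and 0.05 ± 0.09 without it. Rps3a had the lowest adjusted p without replicate 4, at 0.35 ± 0.09 (adjusted p = 0.168). Rps9's second probe gave 0.85 ± 0.25, close to the first.

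In DG no member passed (0 of 64, against 0.0296% of 10152 probes), and the median over members was 0.022, near the 0.018 of all probes. Above 0 were 35 members and 55.4% of probes, and 1 member had an unadjusted p under 0.05, on the higher side (1.18% of probes). Rpl10, that member, had the highest difference, 0.24 ± 0.11 (adjusted p = 1). It read 12.91, 12.81, 12.97 and 12.73 in adults, 13.13, 13.12, 13.33 and 13.19 in intact and 12.87, 13.24, 12.81 and 13.03 in impaired rats. Intact arrays lay above every adult array and impaired arrays overlapped both groups. Rpl15 and Rps15 followed at 0.21 ± 0.12 and 0.20 ± 0.15. The lowest were Rpl24 at -0.46 ± 0.29 and Rpl37 at -0.33 ± 0.24.

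In whole hippocampus, with the slide as a term, 0 of 64 passed (0.309% of 10663 probes). The median was 0.008 against -0.006 for all probes, 38 members and 47.7% of probes were above 0, and 0 members had an unadjusted p under 0.05 (5.64% of probes). Differences ran from -0.22 ± 0.14 for Rplp2 to 0.13 ± 0.09 for Rpl13. Rplp2 encodes a phosphoprotein of the stalk that receives elongation factors, and its arrays ran from 5.97 to 6.29 in adults (median 6.07), 5.31 to 6.27 in intact (5.9) and 5.19 to 6.52 in impaired rats (5.86). Intact arrays reached below the adult range and impaired arrays lay on both sides of it.

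Several members with known roles had differences near 0 in whole hippocampus. Rps6, the substrate of S6 kinase below mTOR, differed by 0.02 ± 0.06, with a 95% interval of -0.12 to 0.15. Rps4x, encoded on the X chromosome, differed by 0.00 ± 0.05 (-0.10 to 0.10), and Rplp1, the partner of Rplp2 in the stalk, by 0.02 ± 0.07 (-0.13 to 0.16). Rpl22 had 0.05 ± 0.05, Rps14 0.06 ± 0.05, Rpl13a 0.03 ± 0.07 and Rpsa 0.08 ± 0.07. In CA3 the same genes had 0.12 ± 0.06 for Rps6, 0.04 ± 0.06 for Rps4x, 0.07 ± 0.08 for Rplp1, 0.10 ± 0.07 for Rpl22, 0.13 ± 0.06 for Rps14 and 0.14 ± 0.07 for Rpl13a. In DG they ran from -0.15 ± 0.16 for Rpsa to 0.16 ± 0.10 for Rps4x. In CA1 with all arrays they ran from 0.03 ± 0.27 for Rpsa to 0.69 ± 0.37 for Rpl13a, and both ends rested on CA1 adult replicate 4. Without it Rpsa had 0.37 ± 0.14 (adjusted p = 0.198), Rpl13a 0.13 ± 0.11 and Rplp1, from 0.63 ± 0.49, -0.12 ± 0.12.

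**Figure D3:**
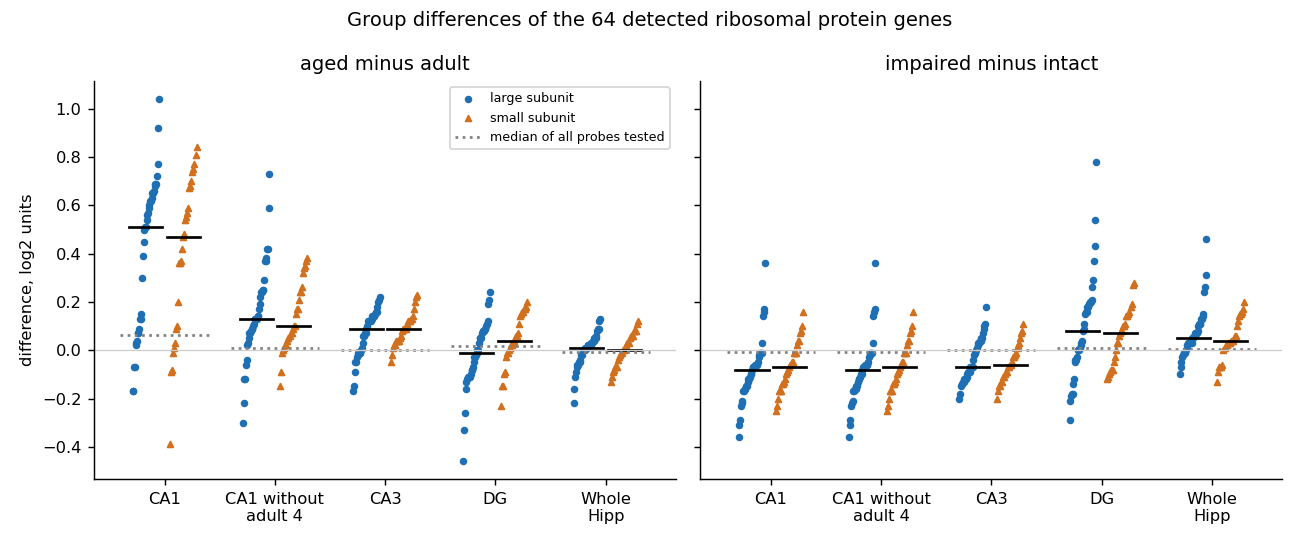
Differences in log2 intensity (vertical axis, log2 units) of the 64 detected members for aged minus adult (left) and impaired minus intact (right) in each region, with CA1 also without adult replicate 4; circles are large and triangles small subunit genes, solid lines their medians and dotted lines the median of all probes tested. The CA1 median of 0.507 over all members becomes 0.126 without that array.

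The second comparison set aged impaired against aged intact rats. No member passed in any region (0 of 64 each, against 0% of the probes tested in CA1, CA3, DG and whole hippocampus). In CA3 the median was -0.064 (large -0.066, small -0.062), against -0.001 for all probes, with 21 of 64 members above 0 where 49.5% of all probes were. Without adjustment 3 had a p under 0.05, all lower in impaired rats, against 2.94% of probes. On the array scores the 3 CA3 groups did not overlap: adults ran from -0.061 to -0.035, impaired from -0.003 to 0.026 and intact from 0.039 to 0.081. These bands describe the members as a set and carry no test.

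Rpl21 again led in CA3, at -0.18 ± 0.07 (adjusted p = 0.936), with all 4 impaired arrays given above below all 4 intact ones. Rps10 was at -0.15 ± 0.06, with intact arrays at 13.37, 13.44, 13.35 and 13.32 and impaired arrays at 13.24, 13.17, 13.26 and 13.23. All impaired arrays lay below all intact arrays and within or near the adult range of 13.17 to 13.25. Rps16 and Rpl7a had the lowest values, both -0.20, and Rpl5 (0.18 ± 0.15), Rps6 (0.11 ± 0.07) and Rpl7 (0.11 ± 0.11) the highest. Lower without overlap described 5 of 64 members (Rpl21, Rpl23a, Rpl29, Rps10 and Rpsa) and 2.46% of all probes.

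In CA1 the median was -0.074 (-0.009 for all probes, and -0.13 to -0.012 with single arrays left out in turn), 12 members and 47.8% of probes were above 0, and 0 members had an unadjusted p under 0.05 (0.331% of probes). Among the lower differences were -0.31 ± 0.54 for Rpl7 and -0.29 ± 0.25 for Rpl37, and the highest was 0.36 ± 0.51 for Rpl5. Rpl5 read 6.95, 6.97, 6.95 and 6.76 in intact and 7.08, 7.36, 7.36 and 7.26 in impaired rats, with no overlap. Without CA1 adult replicate 4, which enters only the estimate of the spread here, the same Rpl5 difference had an SE of 0.11 and an adjusted p of 0.841, and it was the 1 member at an unadjusted p under 0.05 (3.6% of probes on the higher side). Higher without overlap described 1 of 64 members and 1.73% of all probes.

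DG had a median of 0.073, against 0.008 for all probes, with 42 members and 51.7% of probes above 0 and 1 member at an unadjusted p under 0.05 on the higher side (1.04% of probes). Rpl24 had the highest difference, 0.78 ± 0.33 (adjusted p = 0.894). It read 9.11, 9.63, 9.99 and 9.55 in intact and 11, 9.3, 10.59 and 10.51 in impaired rats, and 9.96, 10.77, 10 and 10.95 in adults. Impaired replicate 2 lay among the intact arrays while its 3 group members lay above them. Rpl37 had the next value, 0.54 ± 0.28, with 9.4, 9.39, 9.44 and 8.9 in intact and 10.66, 9, 9.9 and 9.73 in impaired rats, and again impaired replicate 2 was low. Rplp1 was lowest, at -0.29 ± 0.14, then Rpl10 at -0.21 ± 0.12. Rplp2 was lower without overlap, 1 of 64 members against 0.739% of probes.

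Whole hippocampus had a median of 0.042 (0.007 for all probes) and 48 members above 0 (52.4% of probes), with 1 member at an unadjusted p under 0.05 on the higher side (2.82% of probes). Rpl37 had the largest difference, 0.46 ± 0.29, then Rpl7 at 0.31 ± 0.21 and Rpl23 at 0.26 ± 0.12 (adjusted p = 0.642). All of these rested on intact replicates 2 and 7. Rpl37 read 8.05 and 7.48 there, against a lowest value of 9.42 in adults and 9.62 in impaired rats and an intact median of 10.01. Rpl23 read 11.01 and 10.72 there, against an intact median of 11.73 and an impaired range of 11.56 to 12.05. Rpl7 read 9.24 and 8.7 (intact median 10.3).

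Leaving out both arrays, a choice made after seeing the values, gave -0.06 for Rpl37, -0.03 for Rpl7 and 0.05 for Rpl23. The median over members was then -0.011 (-0.002 for all probes) with 23 of 64 above 0, and 0 passed (0% of probes). For aged minus adult the same choice gave a median of 0.038 (-0.005 for all probes) with 49 of 64 above 0. With all arrays these were 0.008 and 38. Again 0 passed (0.6% of probes). The share of all probes above 0 was not computed for this choice. Other members were nearer to their group: Rps4x read 13.45 and 13.24 there and Rpl10 12.99 and 13.03, with intact medians of 13.48 and 13.1. Rps3 (13.1 and 13.13) and Rpsa (12.95 and 12.94) had their highest values of all 24 arrays on this pair. The pair lay on different slides. Low values on them were therefore uneven over members.

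**Figure D4:**
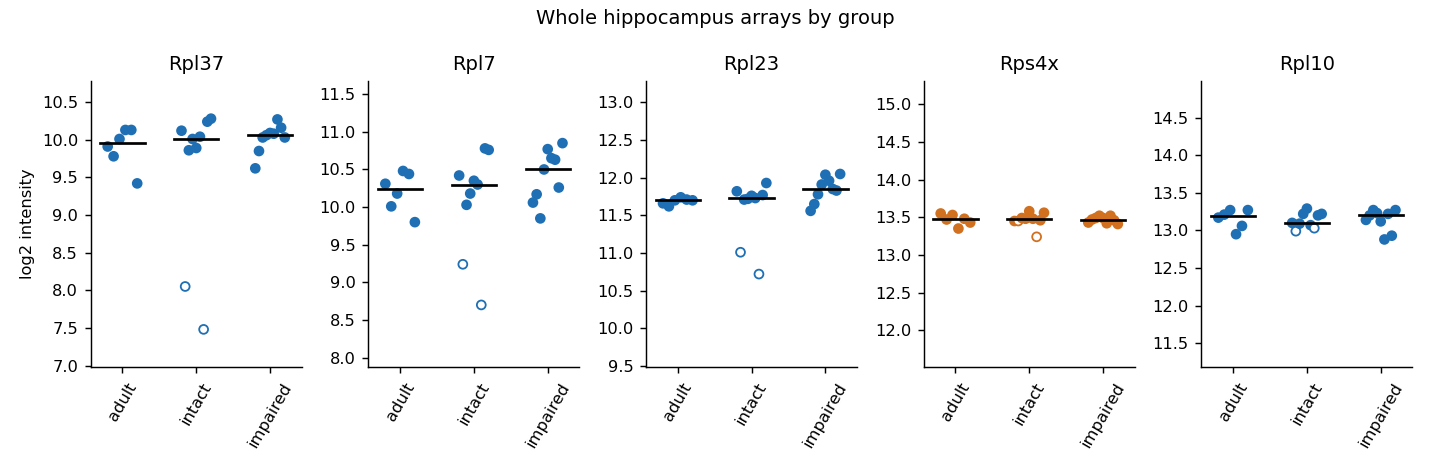
Log2 intensity (vertical axis, log2 units; each panel spans the same height) on the 24 whole hippocampus arrays by group for Rpl37, Rpl7, Rpl23, Rps4x and Rpl10; open points are aged intact replicates 2 and 7 and lines are group medians. The open points lie far below the rest for the first 3 genes and near them for Rps4x and Rpl10.

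Slides in whole hippocampus also differed. The member mean had a median of -0.111 over the 12 arrays of one slide and -0.012 over the 12 of the other. Within the slides the impaired minus intact median over members was 0.020 and 0.072, and the aged minus adult median -0.003 and 0.007. Both slides thus had aged values near 0 with all arrays.

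Genes differed widely in how much they varied within groups. Rpl37 had the highest within-group SD (0.519), then Rpl7 (0.393) and Rpl24 (0.345), all of the large subunit, and Rpl5 was also high (0.281). Rps4x had the lowest (0.08), with Rpl4 (0.086), Rpl19 (0.087) and Rps6 (0.093). Over the 59 arrays Rpl37 moved with Rpl23 (r of 0.86) and Rpl7 (0.85) and against Rps24 (-0.66). Each member's r with the mean of the others was above 0.5 for 35 members and below 0 for 3. These r values are descriptions, since arrays share normalization and Rpl37, Rpl7 and Rpl23 share the 2 low arrays.

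The third comparison asked whether members differed between CA1, CA3 and DG. The F test called 20 of 64 members, against 57.7% of the 10654 probes tested. Without CA1 adult replicate 4 it called 52 of 64, against 73.7%. With all arrays the share of members was under that of all probes, and without that array it was above it. Each subfield had its own slide, so these are differences between slides as much as between subfields.

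Relative to CA1, most members that passed were lower elsewhere. CA3 minus CA1 had 2 members higher and 10 lower (16% of all probes were higher and 14% lower), with a median of -0.106 against 0.023 for all probes. Without CA1 adult replicate 4 it had 2 higher and 36 lower (21.6% and 22.1% of probes) and a median of -0.185 against -0.002. By subunit, 20 of 27 small and 16 of 37 large members were then lower in CA3. DG minus CA1 had 2 higher and 11 lower (24.5% and 20.5%), and 3 and 33 without that array (28.6% and 26.2%), with 16 of 27 small and 17 of 37 large members lower. DG minus CA3 had 4 higher and 3 lower (19.9% and 20%), and 13 and 8 without it (29.3% and 29.8%).

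Rps27, a zinc-finger protein of the small subunit, had the second smallest F test p. Its 12 CA1 arrays ran from 12.71 to 13.58 (median 13.12), its CA3 arrays from 12.44 to 12.89 (12.69) and its DG arrays from 12.57 to 13.52 (12.77). The ranges overlapped while the medians were apart. CA3 minus CA1 was -0.46 ± 0.09 (adjusted p = 0.00025) and DG minus CA1 -0.30 ± 0.09 (adjusted p = 0.00791), and without CA1 adult replicate 4 they were -0.41 ± 0.08 and -0.26 ± 0.08. Rps14 had -0.29 ± 0.09 and -0.25 ± 0.09 (-0.24 ± 0.07 and -0.20 ± 0.07 without it), and Rps18 -0.27 ± 0.08 and -0.20 ± 0.08, all past the threshold, although Rps18 in DG was at -0.14 ± 0.06 without CA1 adult replicate 4 (adjusted p = 0.0517). Rps23, near the decoding site, had -0.38 ± 0.11 in CA3 (adjusted p = 0.00707), and -0.49 ± 0.07 without that array.

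Rplp2 went the other way and was higher in CA3 than in both other subfields: its arrays ran from 6.23 to 6.86 in CA3, from 4.65 to 6.28 in CA1 and from 5.73 to 6.49 in DG. CA3 overlapped the others only at its lower end. CA3 minus CA1 was 0.67 ± 0.11 (adjusted p = 2.54e-05) and DG minus CA3 -0.56 ± 0.11 (adjusted p = 0.000171), and without CA1 adult replicate 4 CA3 minus CA1 was 0.58 ± 0.09. Its probe was near background, with detection on 8, 12 and 10 of 12 arrays in CA1, CA3 and DG. Rplp1, its partner in the stalk, had a difference of -0.20 ± 0.20 (adjusted p = 0.469) with all arrays and was lower in CA3 without CA1 adult replicate 4, at -0.45 ± 0.07 (adjusted p = 7.47e-06).

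Rpl5 ran from 4.63 to 7.6 in CA1, the lowest value being replicate 4, from 7.2 to 8.07 in CA3 and from 7.11 to 7.86 in DG. It was higher in CA3 than in CA1 by 0.81 ± 0.20 (adjusted p = 0.00203), and by 0.58 ± 0.09 without replicate 4. DG minus CA1 was 0.60 ± 0.20 (adjusted p = 0.014), and 0.37 ± 0.09 without it. Rpl15, of the large subunit, was higher in DG than in CA1 by 0.44 ± 0.10 (adjusted p = 0.000797) and by 0.36 ± 0.08 without replicate 4. It was higher than in CA3 by 0.35 ± 0.10 (adjusted p = 0.00696), a call lost on the deposited processed values (adjusted p = 0.0681). Its DG arrays ran from 8.47 to 9.26 and its CA1 arrays from 7.74 to 8.99.

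Rpl37 was lower in DG, with a difference of -0.62 ± 0.14 from CA1 (adjusted p = 0.000455) and of -0.53 ± 0.14 from CA3 (adjusted p = 0.00196). Its DG arrays ran from 8.9 to 10.66, its CA1 arrays from 9.47 to 10.98 and its CA3 arrays from 10.02 to 10.41. CA3 arrays were far closer to each other than those of the other subfields. Without CA1 adult replicate 4 the difference from CA1 was -0.67 ± 0.13. Rpl14 was lower in DG than in CA1 (-0.36 ± 0.10, and -0.29 ± 0.09 without that array). Rpl9 was lower in CA3 than in CA1 (-0.20 ± 0.06, and -0.18 ± 0.05).

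**Figure D5:**
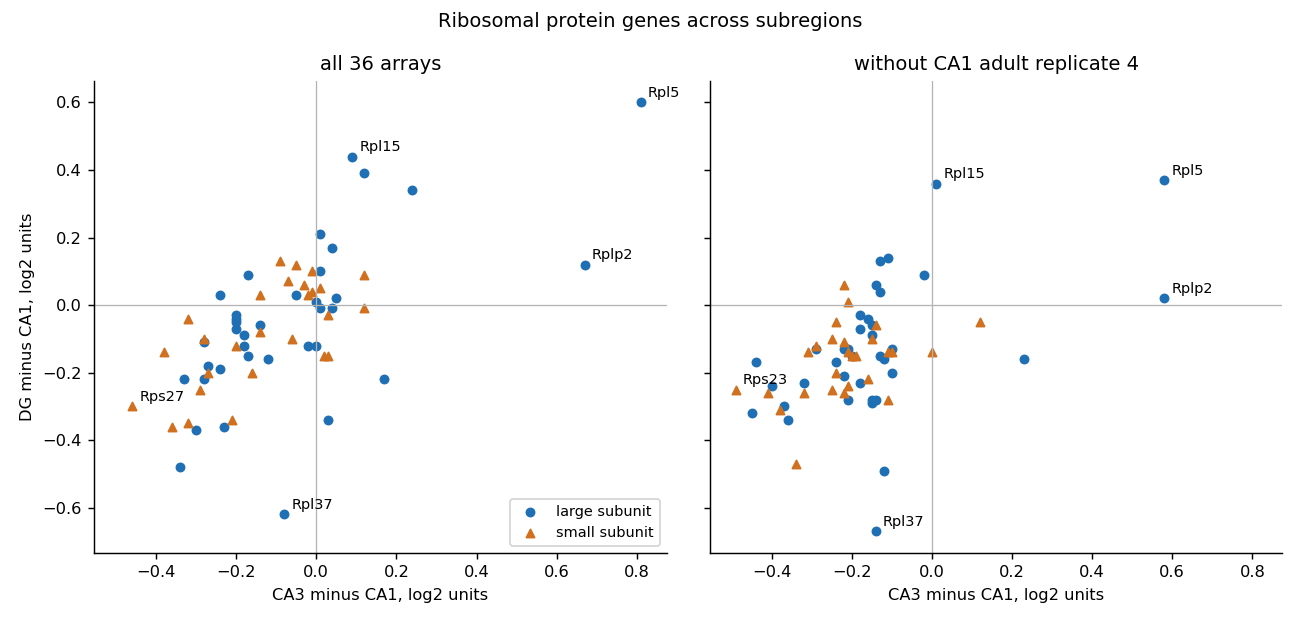
Difference of each detected member between CA3 and CA1 (horizontal axis) and between DG and CA1 (vertical axis), both in log2 units, over all 36 subfield arrays (left) and without CA1 adult replicate 4 (right); circles are large and triangles small subunit genes. Most members lie at the lower left of both zero lines without that array, and Rpl5, Rplp2, Rpl15 and Rpl37 lie apart.

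Markers of other cells differed between the subfields beside these values. Without CA1 adult replicate 4, all 6 oligodendrocyte markers tested were lower in DG than in CA1 (median -1.278) and 0 passed between CA3 and CA1 (0.082), where 26.2% of all probes were lower in DG and 22.1% in CA3. Of 7 microglial markers, 6 were lower in DG than in CA1 (-0.658) and 2 lower in CA3 (-0.172). Among 6 astrocyte markers, 5 were lower in DG (-0.346) and 5 in CA3 (-0.343). Of 5 neuron markers, 3 were higher and 1 lower in CA3 than in CA1 (0.373), where 21.6% and 22.1% of probes were. The microglial count in CA3 was near the share of all probes. Their part in the ribosomal protein differences was not tested.

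Whether an age or impairment difference depended on the subfield was tested as an interaction. No member passed for age (0 of 64, against 0.00939% of probes) or for impairment (0 of 64, against 0%). Without adjustment 6 and 1 members had a p under 0.05, against 6.96% and 0.995% of probes. The shift of CA3 members with age was therefore not shown to differ from that in CA1 or DG.

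Other genes of protein synthesis gave 0 calls for age or impairment in every region. In CA3 aged minus adult, the median was 0.044 over 59 mitochondrial ribosomal proteins, 0.089 over 8 elongation factors and 0.013 over 25 initiation factors. It was 0.053 over 30 ribosome biogenesis genes and 0.076 over 18 other TOP transcripts and ribosome-associated proteins, a mixed list. In CA1 the medians with all arrays were 0.537 for elongation factors, 0.559 for that mixed list and 0.095 for mitochondrial ribosomal proteins. Without CA1 adult replicate 4 they were 0.042, 0.067 and 0.075. Over 11 genes of the S6 kinase and mTOR pathway the median was 0.089 in CA3, and in CA1 0.126 with that array and 0.015 without it.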

How the data were processed

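RNA of 60 samples had been hybridized to Illumina rat bead arrays after Trizol extraction, RNeasy clean-up with DNase I and biotinylation with the Ambion TotalPrep kit, per the labels' protocols. Values came from the deposited table without normalization, whose columns are linear intensity (average bead brightness) and the authors' detection p-value per the file headers. A second deposited table of processed intensity was used as an alternative only, and its software is not given in the sources used here. Among 141 pairs of arrays within groups, 0 held identical values.

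Signals of all 60 arrays were background corrected, quantile normalized and put on a log2 scale with neqc (limma 3.58.1, offset 16, R 4.3.3). Probes with a detection p-value under 0.01 on 4 or more arrays of a region were fitted with lmFit and eBayes by region, with the slide as a term in whole hippocampus. All 36 subfield arrays entered 1 fit with 9 groups for the subfield differences and interactions. Adjusted p-values are Benjamini-Hochberg values over all probes tested, two-sided, with a threshold of 0.05, and errors after ± are standard errors unless said otherwise. The number of arrays limits the precision. The aged minus adult fit was run on simulated arrays of CA3 and whole hippocampus, with independent noise for each probe. CA1, DG, the impaired minus intact comparison, the subfield differences and the interactions were not simulated.

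Members, lists and tests were chosen with earlier results of these data known. Named genes were, per region and comparison, up to 6 called members by smallest p or, where fewer than 3 passed, the 3 highest and 3 lowest differences; the 6 smallest F test p-values between subfields; a fixed set of well-known members; genes at the edge of detection; and up to 3 called genes of each other list. Others, such as Rpl8, Rps10, Rps18 and Rps23, were named after their values were seen. A few genes under this rule are left out here. Alternatives were other normalizations, filters, probe choices, weights, blocks and left-out arrays. Replicate numbers were not used to pair samples, and the labels do not say whether they mark animals. Same-numbered pairs deviated together with r above 0.1 in 3 of 12 cases in CA1, 6 of 12 in CA3 and 3 of 12 in DG. The same held for 12 of 21 in whole hippocampus and 20 of 36 across subfields. Pairs with different numbers were not compared, so these values cannot decide whether arrays of different subfields were paired. Figures were drawn with matplotlib 3.10.9.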

Additional observations from a re-analysis of the deposited data

Results flagged for a closer look

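Within groups of 4 to 10 arrays, 19 measures over 12 groups gave 228 cases, and 16 had 1 array far from the others by Dixon's 95% criterion, where chance gives about 1 in 20. Of these, 5 lay on CA1 adult replicate 4: the member mean at -0.932, Rps3 at 10.29, Rpl10 at 9.88, Rpl23 at 10.05 and Rpl5 at 4.63. Its detected share of 22.22% and the lack of CA1 markers stand beside these values, and their part was not tested.

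Elsewhere in CA1, Rpl24 was low at 9.89 on impaired replicate 4, Rpl5 low at 6.76 on intact replicate 4, and Rplp2 low at 5.62 on intact replicate 2. In CA3, Rpl24 read 10.26 on adult replicate 4, Rplp2 6.23 on adult replicate 1 and Rps9 12.08 on impaired replicate 4. In DG, Rplp2 read 6.49 on adult replicate 2, Rpl15 9.26 on impaired replicate 2 and Rpl37 8.9 on intact replicate 4. In whole hippocampus, Rpl5 read 7.39 on adult replicate 5 and Rpl21 12.46 on impaired replicate 9.

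Among the genes screened here, which are some of the 64, every impaired array of 2 genes lay on one side of the intact mean in 1 region and on the other side in another. Rpl21 had an impaired minus intact difference of 0.26 ± 0.20 in DG and -0.18 ± 0.07 in CA3, and its interaction over the 3 subfields had an adjusted p of 1 by limma's F test. Rpl37 had 0.46 ± 0.29 in whole hippocampus and -0.15 ± 0.09 in CA3, a difference between these regions that was not tested. Without whole hippocampus intact replicates 2 and 7 the Rpl37 value there was -0.06.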

How the results depend on the processing

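No member was called for age or impairment within a region under any alternative but 1. A single fit over all 60 arrays, which shares the spread between regions, called 35 members in CA1 for age. That fit kept CA1 adult replicate 4. Its share of all probes called was not computed, so the count cannot be read as a result about the members. The median over members kept within 1 SD of array values in 198 of 204 recomputations and changed sign in 9. In CA1 that SD was widened by CA1 adult replicate 4 (SD 0.513 in the adult group), so the count says little about CA1. For CA1 age it was 0.134 with array weights, 0.126 when CA1 adult replicate 4 was left out before normalization (a choice made after seeing the data) and 0.126 to 0.647 with single arrays left out. For CA3 it was 0.075 with no detection filter, and its impaired minus intact median ran from -0.067 to -0.042 with single arrays left out. In DG the medians so ran from -0.026 to 0.065 for age and 0.04 to 0.103 for impairment, and in whole hippocampus from -0.003 to 0.026 and 0.013 to 0.057.

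The difference between the subunits' medians was small and moved more easily, staying within 1 SD in 179 of 204. In CA1 for age (0.042) it was 0.077 on the deposited processed values, 0.083 with no filter, 0.074 with detection on every array and 0.025 to 0.143 with single arrays left out. In CA1 for impairment (-0.003) it was -0.046 on the processed values and -0.034 to 0.028 with arrays left out. In CA3 for age (0.001) it was 0.015 with each region normalized alone, 0.018 on the processed values, -0.022 with no filter and -0.025 to 0.016 with arrays left out. In CA3 for impairment (-0.004) it was 0.014 with no filter, 0.022 with array weights and -0.004 to 0.059 with arrays left out, and in DG for impairment (0.007) it was 0.062 with array weights.

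The count of members that differed between subfields was 20 (57.7% of all probes), and 52 without CA1 adult replicate 4 (73.7%). It was 60 with array weights, 17 to 52 over all arrays left out in turn and 14 to 60 over the settings reported. Array weights called 2 for the impairment interaction. Shares of all probes were not computed for the other settings, so their counts cannot be set against other probes. Only a chosen set of members was recomputed over the settings, and in it 3 genes turned with a call. With array weights Rpl7 in CA3 minus CA1 went to -0.19, and in DG minus CA1 Rps4x to -0.11 and Rps6 to -0.10. Rps6 was also at -0.10 without CA1 adult replicate 4, and between -0.10 and 0.09 over the arrays left out in turn. Of the 8708 recomputed differences of that set, in all comparisons, 313 more changed sign without a call. Members outside the set also turned without CA1 adult replicate 4. Among them were Rps27a in CA3 minus CA1 (0.01 to -0.19, adjusted p = 0.004) and Rpl19 in DG minus CA1 (0.01 to -0.21, adjusted p = 0.00018). With a replicate block the count between subfields was 18 and every other count 0. The block moved the whole hippocampus median for age from 0.008 to -0.003, and whether the numbers mark pairs is not known. The causes were not tested. Subfield differences with each region normalized alone are not given here.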

Other observations

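Mitochondrial ribosomal proteins, which build the separate ribosome of mitochondria, had a median of 0.134 over 59 genes in CA3 minus CA1, and of 0.063 without CA1 adult replicate 4, while the 64 cytosolic members had -0.106 and -0.185. Of the 59, 12 were higher and 0 lower in CA3 (16% and 14% of all probes), and without that array 14 were higher and 1 lower (21.6% and 22.1%). In DG minus CA3, 3 of the 59 were higher and 16 lower (median -0.102), where 19.9% and 20% of probes were. Without CA1 adult replicate 4 these counts were 4 and 26, where 29.3% and 29.8% of probes were. In CA3 minus CA1 the share of higher calls was near that of all probes. The difference between the mitochondrial and cytosolic lists was not tested, and slide and subfield cannot be told apart.

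Ribosome biogenesis genes, which act in the nucleolus, are given without CA1 adult replicate 4. They had 9 of 30 higher and 1 lower in CA3 than in CA1 (median 0.082), where 21.6% and 22.1% of all probes were. In DG minus CA1 they had 11 higher and 3 lower (0.034), where 28.6% and 26.2% of all probes were. Initiation factors had 5 of 25 higher and 2 lower in DG than in CA1 (median 0.149 with all arrays and 0.078 without that array, with the same counts), where 24.5% and 20.5% of probes were with all arrays. The 18 other TOP transcripts and ribosome-associated proteins had 0 higher and 1 lower in CA3 than in CA1 (0.108). With all arrays 16% and 14% of all probes were. Without CA1 adult replicate 4 they had 0 and 3 (-0.075), where 21.6% and 22.1% of probes were.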
